A study of Mus musculus with 6 samples.

Results

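The genes described here are 5 organizers of synapses: the cerebellins Cbln1, Cbln2 and Cbln4, the related C1q-like gene C1ql3, and Grid1, which codes for the delta-type glutamate receptor GluD1. They were taken by symbol from a table of 14250 rows, and all 5 had a row. The choice was made with the contrast of LPS against saline in view, so the values of these 5 genes in that contrast are given as a description and without a test. C1ql3 is neither a cerebellin nor a delta receptor.

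RNA came from the anterior cingulate cortex (ACC), a frontal midline area tied to mood and pain, of C57BL/6 mice. At postnatal day 14 a group of 3 mice had received LPS (lipopolysaccharide, a bacterial endotoxin) intraperitoneally at 50 µg per kg, and a group of 3 mice had received pyrogen-free saline. Tissue was dissected by hand at postnatal day 45 after perfusion with cold PBS, and each library of polyadenylated RNA came from 1 mouse. The labels used here do not state sex, litter or cage. The series asks how early inflammation relates to later loss of dendritic spines and depression-like behaviour.

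Libraries held 36168687 to 41270737 counts. Upper layer cortical markers had a row for 8 of 8 genes and deep layer markers for 11 of 11, with Tbr1 at 188 to 235 CPM. CPM are counts scaled to the size of each library, here with TMM factors.

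Cerebellins are secreted proteins with a C1q domain that assemble into hexamers. Released into the synaptic cleft, they bind neurexins on the presynaptic side and, for Cbln1 and Cbln2, delta glutamate receptors on the postsynaptic side, and so tie both membranes together. Cbln4 binds neurexins and also DCC and neogenin. In the cortex it marks somatostatin interneurons and acts at their inhibitory synapses on dendrites. C1q-like proteins have the same domain and bind the adhesion receptor Adgrb3, and GluD1 carries no ordinary ion current but anchors the cerebellin bridge in forebrain neurons.

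The 3 cerebellins are alike in coding sequence, so the first question was whether reads could be mistaken between them. In GENCODE M21 on GRCm38, coding sequences were 75.1% identical between Cbln1 and Cbln2, 73.8% between Cbln2 and Cbln4, and 70.4% between Cbln1 and Cbln4. The longest identical run in their transcripts was 18, 21 and 14 bases for these pairs. C1ql3 was 76.8% identical to C1ql1 and 76.5% to C1ql2, with runs of 26 and 38 bases. The 60-base coding windows in which Cbln1 and Cbln4 were most alike are shown as the least favourable stretch for telling this pair apart. They lie ahead of the C1q domain, were identical at 52 of 60 bases, and carry the differing bases in capitals. The Cbln1 window is at chr8:87472118-87472177 and the Cbln4 window at chr2:172042167-172042226, both on the minus strand of GRCm38 and printed 5′ to 3′.
Cbln1: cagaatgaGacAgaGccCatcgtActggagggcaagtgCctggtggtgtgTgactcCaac
Cbln4: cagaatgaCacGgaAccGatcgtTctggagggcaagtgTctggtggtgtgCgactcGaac
The differences are scattered through the window, so a read that spans it separates Cbln1 from Cbln4. No window is shown for the pairs with Cbln2, whose longest identical runs were longer.

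The genes lie on 4 chromosomes. Cbln4 (ENSMUSG00000067578) is at chr2:172036233-172043466 and C1ql3 (ENSMUSG00000049630) at chr2:13003457-13011806, both on the minus strand. Cbln1 (ENSMUSG00000031654) is at chr8:87468405-87472609 on the minus strand, Cbln2 (ENSMUSG00000024647) at chr18:86711110-86718283 on the plus strand, and Grid1 (ENSMUSG00000041078) at chr14:34820108-35583379 on the plus strand. Each cerebellin gene is compact, at 4.21 to 7.23 kb, while Grid1 spans 763.27 kb. No annotated gene shares exon bases with a cerebellin. C1ql3 shares some with the predicted genes Gm37824 and Gm37811 and Grid1 with Gm27617, which were not analysed here, so a part of their reads is uncertain. Pter, transcribed towards C1ql3, ends 2 bases from it, and no label says that the library kit preserves strand, so reads at that boundary cannot be assigned to one gene with certainty.

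Of the 5 genes, Cbln2 and Cbln4 were lower in every LPS library than in any saline library, and Cbln1, C1ql3 and Grid1 had overlapping groups. Over all rows, 6.84% of rows were lower in this way. Because the genes were chosen on this contrast, nothing is read from the count of 2 in 5. In tissue RNA, fewer cells of a type and less RNA per cell cannot be told apart.

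Cbln2, the most abundant cerebellin here, had counts of 1419, 1576 and 1089 in Saline 1, 2 and 3 and of 885, 730 and 729 in LPS 1, 2 and 3. Scaled to library size, the saline mice had 37.2, 39.4 and 28.6 CPM and the LPS mice 21.1, 18.0 and 20.0 CPM. The lowest saline library, Saline 3, was still 1.36 times the highest LPS library, LPS 1. The mean (± SD, n = 3 mice) was 35.1 ± 5.67 CPM for saline and 19.7 ± 1.55 CPM for LPS, which is 43.8% lower. The log2 change fitted by edgeR was -0.83 (SE 0.123). The authors' FPKM gave 14.7 ± 2.03 for saline and 8.69 ± 1.06 for LPS. The ratio of FPKM to CPM varied up to 1.14 times between libraries for Cbln2 and 1.05 times for each of the other 4 genes. In 245 of 14250 rows, 1.72%, the fitted log2 change was under -0.5, and Cbln2 and Cbln4 are among them. Because the genes were chosen with this contrast in view, nothing is read from their place there.

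Cbln4 was the scarcest of the 5 genes. It had counts of 326, 372 and 253 in Saline 1, 2 and 3 and of 216, 225 and 200 in LPS 1, 2 and 3, or 8.54, 9.29 and 6.65 CPM against 5.15, 5.56 and 5.48 CPM. The LPS libraries lay close together and below Saline 3, the lowest saline library, which was 1.20 times the highest LPS library. The mean (± SD, n = 3 mice) was 8.16 ± 1.36 CPM for saline and 5.40 ± 0.217 CPM for LPS, and the fitted log2 change -0.60 (SE 0.146). At these counts the counting error of a single library is 5.18% to 7.07% of its value, against 2.52% to 3.70% for Cbln2. Within saline, Cbln2 and Cbln4 had the same order of libraries, with Saline 2 highest and Saline 3 lowest. Within LPS their orders were opposite: LPS 1 was highest for Cbln2 and lowest for Cbln4, and LPS 2 the reverse. With 3 libraries per group, nothing is read from either order.

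Cbln1, the founding cerebellin and the one that cerebellar granule cells release, did not follow them. It had 12.2, 8.82 and 10.9 CPM in Saline 1, 2 and 3 against 12.4, 11.3 and 11.7 CPM in LPS 1, 2 and 3. Saline 1 lay among the LPS libraries, and Saline 2, highest for Cbln2 and Cbln4, was lowest for Cbln1. The means (± SD, n = 3 mice) were 10.6 ± 1.69 CPM for saline and 11.8 ± 0.551 CPM for LPS, and the fitted log2 change 0.15 (SE 0.128). Leaving out Saline 2 brought this change to 0.03, and leaving out Saline 1 brought it to 0.26.

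C1ql3, a ligand of Adgrb3, had 153, 158 and 155 CPM in saline and 173, 156 and 140.0 CPM in LPS libraries. Its saline libraries differed by little, while LPS 1 was the highest and LPS 3 the lowest of all 6. The log2 change was 0.01 (SE 0.0758). Grid1, the receptor gene, had 76.2, 78.5 and 71.1 CPM in saline and 75.6, 79.2 and 78.8 CPM in LPS libraries, with a log2 change of 0.05 (SE 0.0595). Its spread within groups was smaller than in most genes: 13.7% of rows had a smaller one, against 70.8% for Cbln1, 71.6% for Cbln4 and 78.2% for Cbln2.

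**Figure D1:**
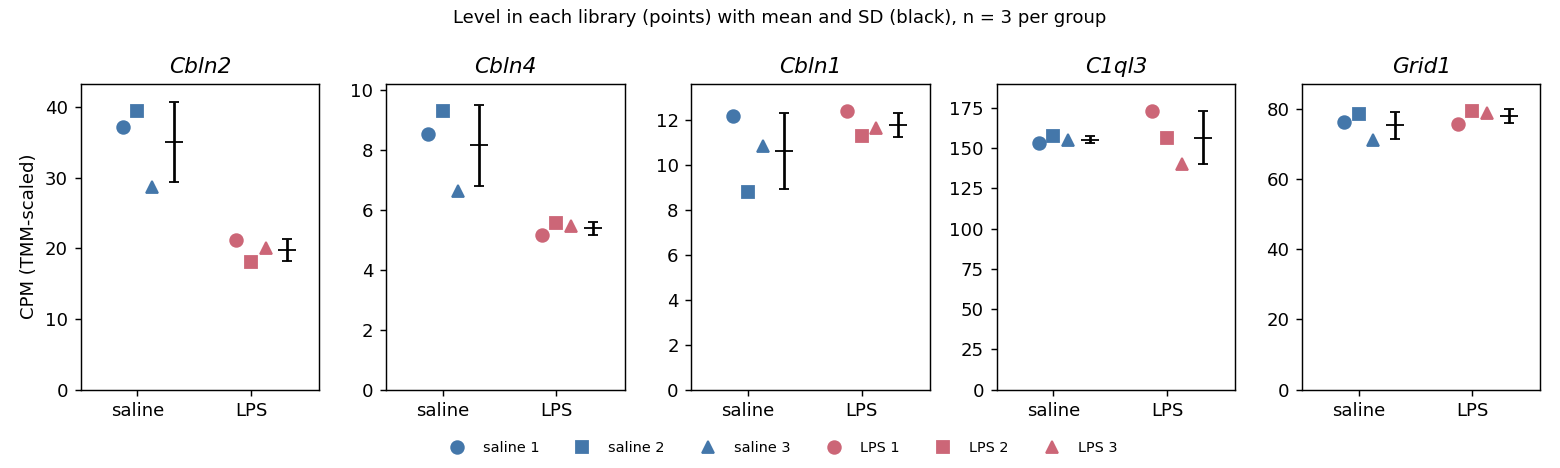
Level of each gene in TMM-scaled CPM (y axes from 0) in the 3 saline and 3 LPS libraries, with marker shapes for the replicate numbers and black bars for mean and SD. Every LPS library is below every saline library for Cbln2 and Cbln4, and the groups overlap for the other 3 genes.

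Leaving out any 1 library kept the log2 change of Cbln2 between -0.96 and -0.74 and that of Cbln4 between -0.72 and -0.49. The highest and lowest of these values came from saline libraries for both genes: the change was largest in size without Saline 3 and smallest without Saline 2. For C1ql3 the value ran from -0.07 without LPS 1 to 0.08 without LPS 3.

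**Figure D2:**
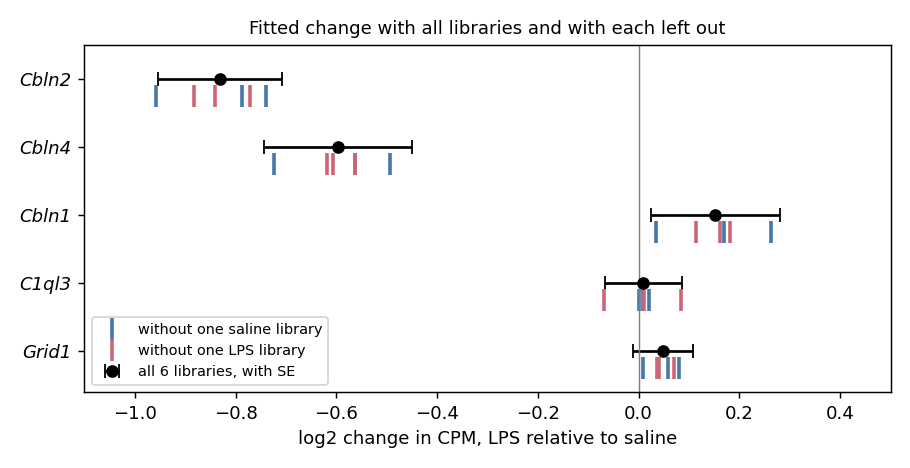
Fitted log2 change of each gene (x axis, LPS relative to saline) with all 6 libraries and its SE (black), and with 1 library left out (coloured ticks). The ticks of Cbln2 and Cbln4 all lie below -0.49, those of C1ql3 lie on both sides of 0.

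Levels between genes were compared on the authors' FPKM, which are scaled to transcript length. Mean FPKM over 6 libraries were 56.3 for C1ql3, 12.2 for Grid1, 11.7 for Cbln2, 3.66 for Cbln1 and 2.13 for Cbln4. C1ql3 thus stood above 93.2% of rows of the table, and Cbln4 above 21.7%. Differences between neighbours in this order were taken within each library on log2(FPKM + 0.01) and tested by a two-sided exact sign-flip permutation test, in which 6 libraries cannot give a p below 0.03125.

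C1ql3 exceeded Grid1 by 2.20 ± 0.126 (SD, n = 6) on the log2 scale in 6 of 6 libraries (exact p = 0.03125, adjusted over 4 pairs 0.0625). Cbln2 exceeded Cbln1 by 1.62 ± 0.552 in 6 of 6 libraries, with the same exact p and adjusted p. Both gaps are larger than their spread, although neither passes 0.05 after adjustment. Cbln1 was above Cbln4 in 5 of 6 libraries (difference 0.81 ± 0.488, exact p = 0.0625, adjusted 0.0833), the exception being Saline 2. Over saline and LPS libraries together, Grid1 and Cbln2 could not be ordered. The difference was 0.12 ± 0.461, Grid1 was higher in 3 of 6 libraries, and the adjusted exact permutation p was 0.5625. The spread of differences that involve Cbln2 includes its difference between the groups. On CPM per kb of merged exons the difference was 0.51 (adjusted exact permutation p = 0.125). Cbln2 had 12.5 to 16.4 FPKM across the saline libraries and 7.72 to 9.82 FPKM across the LPS libraries, and Grid1 lay at 11.6 to 12.8 FPKM, so the 3 libraries with more Grid1 were the LPS libraries.

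**Figure D3:**
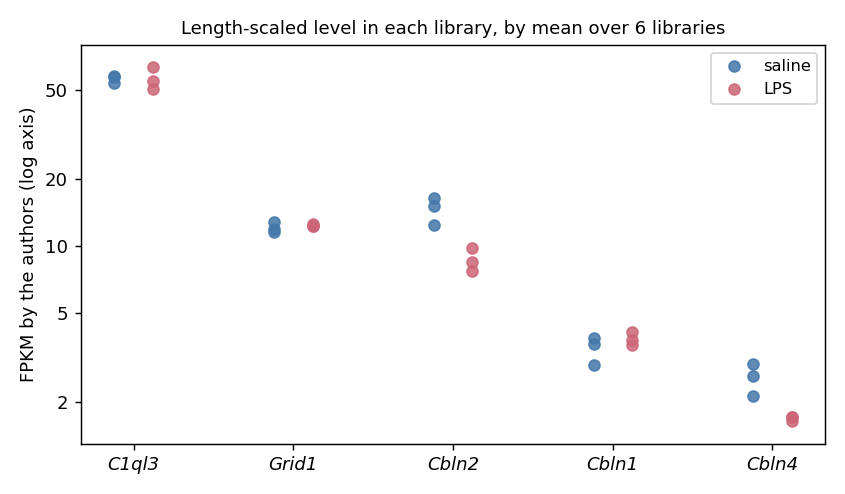
Authors' FPKM of each gene in each library (log axis), ordered by the mean over 6 libraries. C1ql3 lies at 50.5 to 63.5 FPKM, and the points of Cbln2 fall on both sides of those of Grid1.

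Summed over Cbln1, Cbln2 and Cbln4, cerebellin transcripts came to 21.6, 22.3 and 18.2 FPKM in Saline 1, 2 and 3 and to 15.6, 13.02 and 14.04 FPKM in LPS 1, 2 and 3. Cbln2 made up 68.4% to 73.6% of this sum in saline and 59.3% to 63.0% in LPS libraries, and Cbln1 13.1% to 19.9% and 26.4% to 27.7%. The share of Cbln4 overlapped, at 11.7% to 13.3% and 10.6% to 13.1%. The FPKM of Cbln2 was thus 3.44 to 5.63 times that of Cbln1 in saline and 2.14 to 2.39 times in LPS libraries. Relative to Grid1, the summed cerebellins went from 1.71 ± 0.130 in saline to 1.15 ± 0.110 in LPS libraries (SD, n = 3 each).

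**Figure D4:**
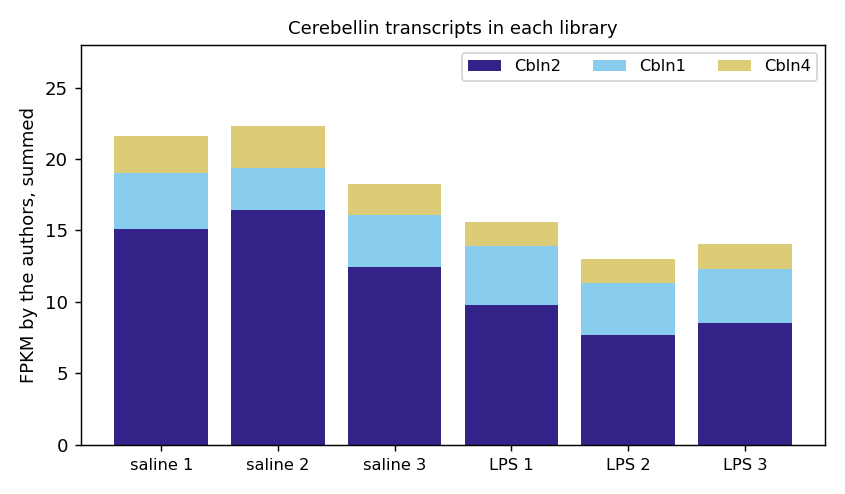
Authors' FPKM of Cbln2, Cbln1 and Cbln4 stacked for each library (y axis from 0). The saline bars reach 18.2 to 22.3 FPKM and the LPS bars 13.02 to 15.6 FPKM, and the Cbln2 segment accounts for most of each bar.

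The other genes of these families were read from the fit over all 14250 rows. By edgeR with Benjamini-Hochberg adjustment over all rows, 14 rows (0.0982%) were higher and 27 (0.189%) lower at an adjusted p under 0.05. C1ql1 had 7.60, 6.87 and 7.20 CPM in saline and 7.94, 9.42 and 8.79 CPM in LPS libraries, so its groups did not overlap, in the direction opposite to Cbln2 and Cbln4. Its log2 change of 0.27 (SE 0.115) did not pass (edgeR adjusted p = 0.696). C1ql2 was scarce, at 1.57 mean CPM for saline and 1.54 for LPS.

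Of 10 genes of receptors for cerebellins and C1q-like proteins, 10 were measured and 0 passed in edgeR. An unadjusted p under 0.05 was found for 0 of 10, against 7.17% of all rows. Groups did not overlap for 1 of the 10 (10%), Grik4, higher in LPS, against 13.7% of all rows. The neurexin genes Nrxn2 and Nrxn3, which code for presynaptic partners, had log2 changes of 0.07 (SE 0.0719) and -0.01 (SE 0.1003). Dcc and Neo1, the further receptors of Cbln4, had 0.03 (SE 0.122) and 0.08 (SE 0.0734). Adgrb3, the receptor of C1q-like proteins, averaged 98.4 ± 7.42 CPM for saline and 98.1 ± 8.15 CPM for LPS (± SD, n = 3 mice). The kainate receptor genes Grik2 and Grik4, whose proteins C1q-like proteins recruit, had log2 changes of 0.17 (SE 0.0941) and 0.11 (SE 0.0688).

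Over all 6 lists of related organizers, 83 of 87 genes were measured and 0 passed in edgeR in either direction. An unadjusted p under 0.05 was found for 4 of 83 (4.82%), against 7.17% of all rows. DESeq2 called 1, Sparc, and limma on FPKM called 0. Without Saline 2, edgeR called Nptxr, the receptor gene of neuronal pentraxins (log2 2.17, adjusted p = 2.7e-05). Groups did not overlap for 10.8% of the 83, against 13.7% of all rows, with 8 higher and 1 lower. The median log2 change was 0.01, and that of all rows 0.00.

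Other neurexin ligands and regulators (17 genes) had a median of 0.05. Nlgn2, the neuroligin of inhibitory synapses, averaged 352 ± 23.3 CPM for saline and 384 ± 6.73 CPM for LPS, a difference that did not pass (log2 0.13 with SE 0.0606, adjusted p of 0.718 in edgeR), and Igsf21, a neurexin-2 ligand at inhibitory synapses, had a log2 change of 0.24 (SE 0.116). The 12 latrophilin, teneurin and FLRT genes had a median of 0.01. Flrt2, a latrophilin ligand, was the only one of the 83 lower in every LPS library, with a range of 90.2 to 101 CPM for saline and 79.8 to 85.1 CPM for LPS, but it did not pass either (log2 -0.20 with SE 0.0628, adjusted p of 0.460 in edgeR). The netrin receptor gene Unc5d had 0.44 (SE 0.240).

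Genes of LAR-type receptor phosphatases and their ligands (19 of 20 measured) had a median of -0.01 and no gene with separate groups. Ptprf, a phosphatase of this type, had 0.15 (SE 0.0860) and Slitrk4, one of the ligands, -0.14 (SE 0.0834). Of the adhesion and secreted genes (21 of 22 measured, median 0.04), Sparc, a secreted matrix protein of glia and vessels, averaged 181 ± 7.24 CPM for saline and 216 ± 7.27 CPM for LPS (log2 0.25 with SE 0.0566, adjusted p of 0.207 in edgeR and 0.0302 in DESeq2). Nptx2, a pentraxin that gathers AMPA receptors, had 0.24 (SE 0.0864, edgeR adjusted p = 0.584).

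**Figure D5:**
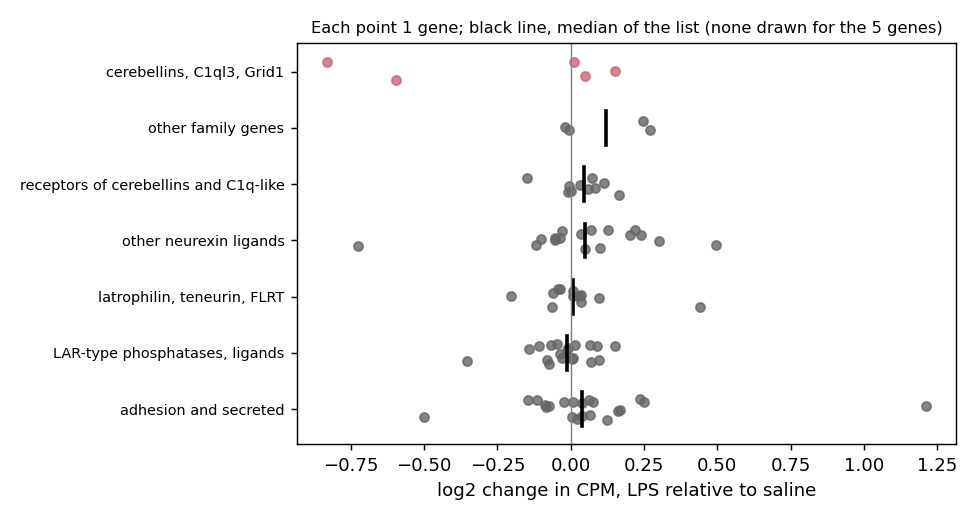
Fitted log2 change (x axis, LPS relative to saline) of the 5 genes and of the measured genes in 6 lists of related organizers, 1 point per gene, with the median of each list as a black line. List medians lie between -0.01 and 0.12, and Cbln2 at -0.83 has the lowest value plotted. The 5 genes were chosen with this contrast in view, so nothing is read from their place.

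Markers of the cells and regions that could carry these transcripts were set beside them. Somatostatin interneuron markers had a row for 10 of 11 genes, and their summed level ranged from 656 to 744 CPM over saline libraries and from 732 to 775 CPM over LPS libraries. Groups did not overlap for 6 of the 10, all higher in LPS, where 6.84% of all rows were. Sst itself ranged from 220 to 262 CPM over saline and from 244 to 277 CPM over LPS libraries, so Cbln4 came to 2.54 to 4.23 CPM per 100 CPM of Sst in saline and 1.86 to 2.28 in LPS libraries.

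Upper layer markers summed to 756 to 907 CPM over saline and 712 to 876 CPM over LPS libraries, with 0 of 8 separated, where 13.7% of all rows were. Cbln2 came to 3.79 to 4.37 CPM per 100 CPM of this sum in saline and 2.18 to 2.96 in LPS libraries. Deep layer markers summed to 553 to 614 and 549 to 657 CPM, with 3 of 11 separated and higher, where 6.84% of all rows were. Thalamus markers summed to 134 to 150 and 127 to 148 CPM over 10 of 11 genes. Cerebellar granule cell markers had a row for 4 of 8 genes and summed to 156 to 165 and 155 to 176 CPM. Most of this sum came from Etv1, also on the deep layer list, with 105 mean CPM in each group. Barhl1, Cbln3, Fat2 and Gabra6 had no row, so the sum does not measure granule cells. Claustrum markers summed to 150 to 165 and 158 to 165 CPM over 5 genes. Of these, 2 were separated and higher and 1 separated and lower, 60% against 13.7% of all rows. Nr4a2, also an activity-induced gene, fell, with a log2 change of -0.71 (SE 0.0947, adjusted p of 0.0159 in edgeR), and lost this call without Saline 1, Saline 2 or LPS 3 (adjusted p of 0.0664, 0.0563 and 0.0802). Limma on FPKM did not call it either (log2 -0.61, adjusted p = 0.0756). The claustrum markers Gnb4 and Ntng2 had log2 changes of 0.36 (SE 0.0768) and 0.34 (SE 0.0718) and did not pass. The remaining claustrum markers, Synpr and Oprk1, had overlapping groups, with log2 changes of 0.01 (SE 0.0786) and -0.19 (SE 0.184). Striatum markers summed to 190 to 203 and 200.1 to 210 CPM, dentate gyrus markers (3 of 6 measured) to 147 to 159 and 129 to 160 CPM, oligodendrocyte markers to 1902 to 2436 and 1909 to 2635 CPM, and meningeal markers to 105 to 203 and 128 to 212 CPM. Most of the dentate gyrus sum came from Calb1, also an upper layer marker, with 138 mean CPM for saline and 126 for LPS. Dsp, Lct and Tdo2 had no row, so the sum does not measure dentate gyrus tissue. The part of the listed cells and regions in the values of the 5 genes was not tested.

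The genes with profiles nearest to each member were found over the 6 libraries among 13464 rows, by the root mean square difference of centred log2(CPM + 1) values. For Cbln2 these were Gadd45b (0.115), Bcl6b (0.120) and Hspa1b (0.126), with mean CPM of 18.4 and 10.4, 4.60 and 2.59, and 21.0 and 12.5 for saline and LPS. For Cbln4 they were Slirp (0.0659), Dusp6 (0.0744) and Pim3 (0.0810), with 7.83 and 5.19, 112 and 72.5, and 53.1 and 38.9 CPM. All 6 were lower in each LPS library than in any saline library, as Cbln2 and Cbln4 were and as 6.84% of all rows were. They were picked for likeness to the profiles of Cbln2 and Cbln4 in these same libraries, so nothing is read from this. Cbln1 was nearest to 1110032A03Rik (0.0411), Aldh16a1 (0.0416) and Gm29666 (0.0422), C1ql3 to Scai (0.0166), Tmed8 (0.0169) and Trnt1 (0.0194), and Grid1 to Rad17 (0.00628), Irgq (0.0156) and Gid4 (0.0163). Among the 5 genes, C1ql3 and Grid1 (0.114) and then Grid1 and Cbln1 (0.166) and Cbln2 and Cbln4 (0.168) were the nearest pairs, and Cbln1 and Cbln2 were the farthest apart (0.517).

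The 2 nearest measured genes on each side of each member, 20 in all, had log2 changes of -0.31 to 0.20. Of these, 0 passed in edgeR, DESeq2 or limma on FPKM. An unadjusted p under 0.05 was found for 1, 0 and 1, against 7.17% of all rows in edgeR. Zfp423 near Cbln1 and Cstf1 near Cbln4 were higher in every LPS library than in any saline library. Cnep1r1 near Cbln1, Rttn near Cbln2 and Mindy3 near C1ql3 were lower in this way. Over all rows, groups did not overlap for 13.7%. Neto1, an auxiliary subunit gene of kainate receptors 204.4 kb from Cbln2, had 64.6 and 66.0 mean CPM for saline and LPS. Fam210b, 302.1 kb from Cbln4, had 24.0 and 23.9 mean CPM.

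A RefSeq promoter window was at hand for 2 of the 5 genes, Cbln4 and C1ql3, and that of C1ql3 lay within its exons. The 250 bases before the RefSeq start of Cbln4 are therefore shown, at chr2:172043467-172043716 on the minus strand of GRCm38. They are printed 5′ to 3′ with motif matches in capitals.
Cbln4: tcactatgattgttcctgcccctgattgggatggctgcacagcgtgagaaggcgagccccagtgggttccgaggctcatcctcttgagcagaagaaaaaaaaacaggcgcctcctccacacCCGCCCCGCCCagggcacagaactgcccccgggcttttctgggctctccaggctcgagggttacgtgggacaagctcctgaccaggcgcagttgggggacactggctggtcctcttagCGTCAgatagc
Motifs were searched on both strands: TGACGTCA and the shorter TGACG, to which cAMP-responsive factors bind, the AP-1 motif TGANTCA, the GC box GGGCGG, the TATA box TATAAA and the E-box CACGTG. Cbln4 held TGACG once, on the opposite strand at position -11 from the start, and GGGCGG at -129 and -124, also on the opposite strand and overlapping by a base. Of 32851 RefSeq windows of this length, 17.8% held TGACG and 32.7% GGGCGG. The window held no full cAMP motif, AP-1 motif, TATA box or E-box, which 1.55%, 6.75%, 12.4% and 6.02% of windows held. Whether these motifs bear on the level of Cbln4 was not tested.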

How the data were processed

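Polyadenylated RNA of 3 saline and 3 LPS mice was compared. The authors deposited raw read counts per gene and library in 1 table, and FPKM values beside them. TopHat2 2.1, DESeq 1.10.1 and GRCm38 are named per the submitters' processing notes, with no role, and neither the counting program nor the annotation is stated. No per-sample column was left unused.

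The counts were fitted with edgeR 4.0.16 (quasi-likelihood, robust, TMM factors) under R 4.3.3, and the model held treatment alone. Low-count filtering by filterByExpr took out 0 of 14250 rows. Two-sided p-values were adjusted over all rows (Benjamini-Hochberg) and read at 0.05. On simulated counts for 14250 genes under this contrast, edgeR recovered 47 of 100 genes changed 1.5-fold and 87 of 100 changed 2-fold, and made 17 false calls. In this single simulated run, the false calls were a larger part of all calls than a threshold of 0.05 allows on average. No libraries were near-duplicates (chi-square per degree of freedom at least 32.1).

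Of 13562 Ensembl identifiers, 13559 were found in GENCODE M21 (GRCm38). Promoters came from RefSeq (GRCm38.p6) and matched 2 of 5 members. The C1ql3 window lay within its GENCODE exons and is not shown. Alignments used Biopython 1.88.

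The members and gene lists were chosen with earlier results of these data known. Named genes are the members, their relatives, listed genes past the threshold, the 2 smallest p in each related list, defining markers and the 3 nearest profiles among rows with a mean of at least 1 CPM. Nrxn2, Nrxn3, Dcc, Neo1, Adgrb3, Neto1, Fam210b, Nptxr, Lrrc4b, Syt6, Etv1, Calb1, Zfp423, Cstf1, Cnep1r1, Rttn and Mindy3 were named after their values were seen. A few listed genes are not reported here. Alternatives were the replicate number as a block, each library left out, RLE factors, total counts, DESeq2 1.42.0, limma 3.58.1 on log2(FPKM + 1) for rows averaging 0.5 FPKM or more, no filter, rows averaging 50 counts or more, 0.1 as the threshold, and for levels a pseudocount of 1 and CPM per kb of exon.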

Additional observations from a re-analysis of the deposited data

How the results depend on the processing

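The log2 changes of Cbln1, Cbln2, C1ql3 and Grid1 moved by less than the spread between replicates under each alternative run, and C1ql3 changed sign at values near 0. That of Cbln4 was -0.40 on log2(FPKM + 1), a scale that understates changes of low genes. Leaving out 1 library gave -0.96 to -0.74 for Cbln2, -0.72 to -0.49 for Cbln4, 0.03 to 0.26 for Cbln1, -0.07 to 0.08 for C1ql3 and 0.01 to 0.08 for Grid1. Over all rows, DESeq2 called 60 higher and 80 lower, limma on FPKM 8 higher, and a threshold of 0.1 gave 23 higher. Leaving out 1 library gave 14 to 20 higher and 22 to 35 lower. Of the related organizers, 1 was called higher by DESeq2 (Sparc) and 1 without Saline 2 (Nptxr, log2 2.17), otherwise 0, so leaving out 1 library gave 0 to 1 higher. The cause was not tested. The order of levels kept its direction under each alternative run, with differences without 1 library of 2.16 to 2.24 for C1ql3 over Grid1, 0.01 to 0.22 for Grid1 over Cbln2 (0.51 on CPM per kb of merged exons), 1.45 to 1.73 for Cbln2 over Cbln1 and 0.70 to 0.97 for Cbln1 over Cbln4, though 5 libraries cannot give an exact p below 0.0625.

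The labels give same-numbered samples nothing in common but a number. Over all rows their deviations correlated at -0.02, -0.01 and 0.03, and 2 of 6 samples correlated best with their own number. Whether they shared handling, litter or cage was not tested, and single genes can still follow the number, as Lrrc4b did. A fit with replicate block called 10 genes higher and 21 lower, the log2 change of Cbln2 was -0.82 and that of Cbln4 -0.59. With 3 mice per group, simulated recovery of 1.5-fold changes was 47 of 100, so smaller differences in receptor genes could be missed.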

Other observations

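A few genes named for their synaptic or layer role varied widely between libraries. Nptxr, the receptor gene of neuronal pentraxins, had 382, 1416 and 361 CPM in Saline 1, 2 and 3 and 1551, 1784 and 1660 CPM in LPS 1, 2 and 3, so that Saline 2 lay near the LPS libraries (log2 1.21, SE 0.665, edgeR adjusted p = 0.786). Lrrc4b, a ligand of LAR-type phosphatases, had 239, 99.99 and 42.8 CPM in saline and 224, 90.1 and 48.3 CPM in LPS libraries. The spread was about the same in both groups, and so was the order of the replicate numbers. Syt6, a deep layer marker, had 8.49, 5.97 and 9.04 CPM in saline and 24.7, 16.5 and 14.8 CPM in LPS libraries (log2 1.25, SE 0.245, edgeR adjusted p = 0.229). The authors' FPKM of Syt6 differed less, at 2.95, 2.62 and 3.42 in saline and 5.43, 3.59 and 3.34 in LPS libraries, and the groups overlapped on that scale.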
